A study of Mus musculus with 6 samples.

Results

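The epidermal growth factor (EGF) receptor family and its ligands were examined in sham and tail-suspended mouse hearts. The family was taken as 10 genes, namely the receptors Egfr, Erbb2, Erbb3 and Erbb4 and the ligands Nrg1, Hbegf, Areg, Ereg, Btc and Tgfa, and every probe that the array names after one of them was used. All 10 genes were on the array, with 13 probes and 40 spots of the 55681 probes and 59305 spots that carried 28909 gene names and were not controls. Of the 10 genes, 5 had a signal bright enough to be tested, among 17140 tested genes in all.

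In tail-suspension the hindlimbs of the animal are held off the cage floor, which serves as a model of microgravity. RNA came from the whole cardiac muscle of male C57BL/6 mice, 3 sham mice and 3 mice after 28 days of tail-suspension, and each heart had 1 array. The mice were 10 weeks old at the start, while the labels also give an age of 11 weeks for every sample. Sham mice were housed alongside the suspended ones without suspension, and the labels name no transgene or drug for either group. Because each sample is a piece of tissue with many cell types, fewer cells of a type and less RNA per cell cannot be told apart.

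EGF receptors are cell surface kinases that work in pairs. A ligand binds Egfr, Erbb3 or Erbb4 and brings 2 receptors together, whereas Erbb2 has no known ligand of its own and serves as the favoured partner, and Erbb3 has little kinase activity and signals through its partner. In the adult heart, neuregulin-1 (Nrg1) released by endothelial cells acts on Erbb4 and Erbb2 of cardiomyocytes, a pathway known for its part in cardiomyocyte growth and survival.

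Levels are log2 intensities relative to the 75th percentile of the same array. That percentile was 322, 320 and 302 intensity units in the sham hearts and 341, 376 and 375 in the tail-suspended hearts. Intensities quoted for single hearts are before this scaling and so carry this difference between the groups. The groups are therefore to be compared by level and log2 fold change. To be tested, a probe had to exceed background clearly in all 3 hearts of either group. The groups were compared with limma and Benjamini-Hochberg adjustment over 28032 tested probes, and an adjusted p under 0.05 counted as a call. Each gene is represented by whichever of its tested probes was brightest. Between 50.9% and 53.4% of probes were well above background on an array, no spot was saturated, and the 6 arrays shared 1 slide and 1 scan. Precision is limited by the number of arrays, and an exact two-sided permutation test of 3 arrays against 3 cannot give a p below 0.1. All 8 cardiomyocyte markers were well above background on all 6 arrays. Of these, 1, Actc1, was lower after tail-suspension, beside 10.5% of all tested genes.

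By the brightest probe, 1 of the 5 tested genes, Erbb2, was higher after tail-suspension and none was lower. Of all 17140 tested genes, 10.6% were higher and 10.5% lower. Counted by probe, 3 of the 7 tested probes were higher, 1 of Erbb2 and 2 of Egfr, and none was lower, and 10.8% of all tested probes were higher. At an unadjusted p under 0.05 the number of probes was 4. The share of all tested probes under that unadjusted threshold was not counted, so nothing particular to the family can be read from this number. The 3 tail-suspension arrays lay wholly above the 3 sham arrays for 2 of the 5 genes, Egfr and Erbb2, while the groups did not overlap for 46.4% of all tested genes. The log2 fold changes of the 5 genes ran from -0.12 for Hbegf to 0.39 for Egfr with a median of 0.23, and over all tested genes the median was -0.01 with quartiles of -0.24 and 0.23. Erbb3, Areg, Ereg and Tgfa were not well above background on any array, and Btc was so on 3 arrays.

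**Figure D1:**
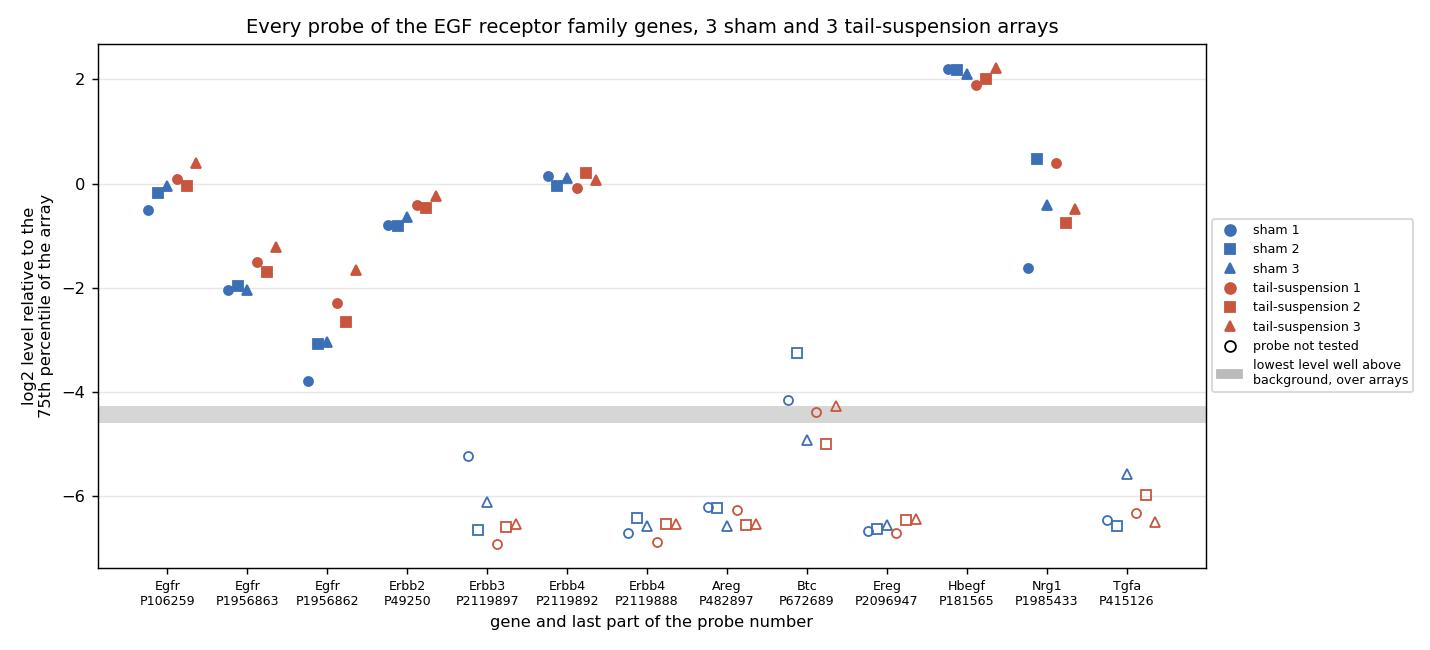
Log2 level relative to the 75th percentile of the array (vertical axis) for each of the 13 probes of the 10 genes (horizontal axis), with 1 point for each of 3 sham (blue) and 3 tail-suspension arrays (red). The 3 Egfr probes and the Erbb2 probe show no overlap between groups, the Nrg1 points spread from -1.62 to 0.47, and open points mark probes that were not tested. Probes differ in how strongly they bind, so heights are to be read within a probe.

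Egfr is the receptor for EGF, heparin-binding EGF, amphiregulin and other ligands of its class. It was read by 3 probes, all of which were brighter in each tail-suspended heart than in any sham heart. The brightest, A_52_P106259, was made for the transcript NM_207655, matches chr11:16813815-16813874 on the plus strand of mm9 and was printed 10 times on each array. Its processed intensity was 227, 284 and 291 in the sham hearts and 364, 365 and 492 in the tail-suspended hearts. On the scaled log2 level, sham replicate 3 (-0.0513) and tail-suspension replicate 2 (-0.0456) all but met, so the gap between the groups was smaller than the spread within either. Sham hearts had a level of -0.24 ± 0.23 and tail-suspended hearts one of 0.15 ± 0.22 (mean ± SD, n = 3 each). The log2 fold change of 0.39 (SE 0.16, 95% interval 0.00036 to 0.78) did not pass the threshold (limma, Benjamini-Hochberg adjusted p = 0.131).

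The other Egfr probes are annotated to NM_007912, the shorter transcript, which as background encodes the extracellular part of the receptor without its kinase. Whether A_55_P1956863 also matches the long transcript was not tested, so it cannot be read as a measure of the short form alone. They are printed here because the signal of Egfr differed by probe. Capitals mark a stop codon at the end of the probe, in a frame that is open across the rest of it.
Egfr A_55_P1956863: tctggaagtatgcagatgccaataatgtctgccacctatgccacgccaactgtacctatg
Egfr A_55_P1956862: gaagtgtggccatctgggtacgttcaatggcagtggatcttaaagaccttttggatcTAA
The first lies at chr11:16783556-16783615 and the second at chr11:16787172-16787231, both on the plus strand of mm9. No run of 20 bases of either occurs in another probe of the array.

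Probe A_55_P1956863 gave intensities of 77.6, 81.3 and 73.4 in the sham hearts and 119, 116 and 161 in the tail-suspended hearts. Its level was close among the sham arrays (-2.02 ± 0.041, SD, n = 3) and higher on every tail-suspension array (-1.48 ± 0.24, SD, n = 3). Its log2 fold change was 0.55 (SE 0.13) and passed the threshold (limma, Benjamini-Hochberg adjusted p = 0.0337). Probe A_55_P1956862, which ends on the stop codon, gave 23.3, 38.0 and 36.7 in the sham hearts and 69.1, 59.7 and 119 in the tail-suspended hearts. Sham replicate 1 was the dimmest and tail-suspension replicate 3 the brightest, as they were for the brightest probe. A log2 fold change of 1.09 (SE 0.30), or 2.13-fold, also passed (limma, Benjamini-Hochberg adjusted p = 0.0482).

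The dimmer probes depended more on the normexp step, which both removed background and added an offset of 50 intensity units to every spot. An offset shrinks the log2 ratio of a dim probe more than that of a bright one, and its part was not tested. After normexp correction of the mean and background intensities, the log2 fold change was 0.35 for A_55_P1956862 and 0.26 for A_55_P1956863, neither past the threshold (limma, Benjamini-Hochberg adjusted p = 0.153 and 0.140), and 0.33 for A_52_P106259. Each of the 2 calls was also lost when any 1 array other than tail-suspension replicate 2 was left out.

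Whether the probe at the stop codon moved apart from the brightest probe was compared within each array, a comparison chosen after the values were seen. The level of A_55_P1956862 minus that of A_52_P106259 was -3.28, -2.90 and -2.99 in sham and -2.40, -2.61 and -2.05 in tail-suspended hearts. The groups did not overlap, and their means differed by 0.70 (exact two-sided permutation p = 0.1, the smallest the design allows). After normexp correction the same difference was 0.020 (exact two-sided permutation p = 0.9), and with quantile normalization 0.65 (exact two-sided permutation p = 0.1). It thus depended on the normexp step, whose offset of 50 was not varied. For A_55_P1956863 the difference was 0.16 with overlapping groups (exact two-sided permutation p = 0.4).

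**Figure D2:**
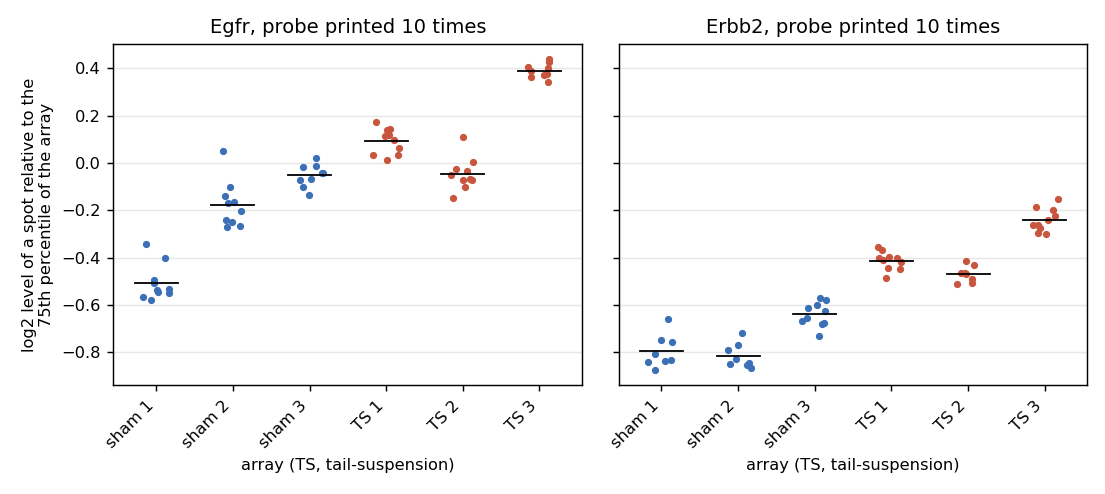
Log2 level of each spot relative to the 75th percentile of its array (vertical axis) for the Egfr and Erbb2 probes that were printed 10 times, by array (horizontal axis), without spots with an outlier flag; black lines are means of the spots. Spots of 1 array lie close together, with a coefficient of variation of 2.10% to 7.02% for Egfr and 2.37% to 4.91% for Erbb2, while the arrays of a group are spread wider.

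Erbb2 was the only one of the 10 genes with a call by its brightest probe. It was read by 1 probe, A_52_P49250, made for NM_001003817 at chr11:98298103-98298162 on the plus strand of mm9 and printed 10 times. The processed intensity was 186, 182 and 194 in the sham hearts and 256, 272 and 318 in the tail-suspended hearts. Every tail-suspension array was above every sham array, both in intensity and in level. Sham hearts had a level of -0.75 ± 0.096 and tail-suspended hearts one of -0.37 ± 0.12 (mean ± SD, n = 3 each). The log2 fold change was 0.38 (SE 0.10, 95% interval 0.13 to 0.62), a 1.30-fold difference (limma, Benjamini-Hochberg adjusted p = 0.0448).

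The Erbb2 call lay close to the threshold and was lost without any 1 array other than tail-suspension replicate 2, when the adjusted p was 0.0530 to 0.143, and under normexp correction (log2 fold change 0.28, adjusted p = 0.0718, limma with Benjamini-Hochberg adjustment). The first row of the slide held the 3 sham arrays and tail-suspension replicate 1, and the second row held only tail-suspension arrays. With the row as a block, the comparison rests on the first row, where Erbb2 differed by 0.34 and Egfr by 0.34, neither past the threshold (limma, Benjamini-Hochberg adjusted p = 0.282 and 0.472).

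Over the 6 arrays, the genes whose level was most like that of Erbb2 among 17119 other genes were Txlna (Pearson r = 0.999) and Adora2b, an adenosine receptor (Pearson r = 0.997). With 6 arrays that share scaling and slide, these correlations are given as a description. Txlna differed between the groups by 0.27 and Adora2b by 0.89 on the log2 scale.

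Marker lists of other heart cells were read on the same arrays as Egfr and Erbb2. Their calls stand beside 10.6% higher and 10.5% lower of all tested genes. Of 4 genes listed as endocardial markers, 3 (Npr3, Nfatc1 and Vwf) were higher after tail-suspension, with a median log2 fold change of 0.67. The mean level of the list was 0.97 to 1.18 in sham and 1.59 to 2.02 in tail-suspended hearts, with Plvap overlapping between the groups. Vwf is not limited to endocardium, so this list and the next do not separate endocardial from other endothelial cells. Of 7 genes listed as endothelial markers, 4 (Kdr, Tie1, Emcn and Egfl7) were lower and none higher, with a median log2 fold change of -0.31. Their mean level was 2.92 to 3.00 in sham and 2.49 to 2.74 in tail-suspended hearts. Of 8 leukocyte markers tested out of 9, 3 (Ptprc, S100a8 and S100a9) were higher and 1 was lower, with a median log2 fold change of 0.16. Their mean level was -0.19 to 0.05 in sham and 0.67 to 1.29 in tail-suspended hearts. S100a8 and S100a9 differed by 4.80 and 4.62 on the log2 scale. All markers of the first 2 lists were well above background on all 6 arrays, and Cd68 of the leukocyte list was not tested. Of 7 fibroblast markers 1 was lower and none higher, with a median log2 fold change of -0.63 and mean levels of 3.32 to 3.59 in sham and 2.54 to 3.28 in tail-suspended hearts. Of 5 smooth muscle markers 1 was lower and none higher, with a median of 0.36 and mean levels of 3.00 to 3.58 and 3.34 to 3.87. Of 5 erythroid markers 4 were tested and none passed, with a median of -1.52 and mean levels of 3.93 to 4.79 and 2.48 to 3.82. Only 2 of 7 epicardial and mesothelial markers were tested and neither passed, with a median of 0.53, and Upk3b, Upk1b and Krt19 were not well above background on any array. The part of these cell types in the signal of Egfr and Erbb2 was not tested.

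Erbb4, the neuregulin receptor of cardiomyocytes, was read by 2 probes, of which 1 gave a signal. Probe A_55_P2119892, made for the Ensembl transcript ENSMUST00000121473 and placed at chr1:68078805-68078864 on the minus strand of mm9, gave intensities of 358, 309 and 327 in the sham hearts and 323, 432 and 393 in the tail-suspended hearts. The groups overlapped, with levels of 0.073 ± 0.11 (SD, n = 3) and 0.062 ± 0.14 (SD, n = 3). The log2 fold change was -0.01 with a 95% interval of -0.27 to 0.25 (limma, Benjamini-Hochberg adjusted p = 0.951), so a change larger than that interval was not seen with this probe. The mean level of the cardiomyocyte markers was 7.90 to 8.07 in sham and 7.88 to 7.94 in tail-suspended hearts, with a median log2 fold change of -0.11.

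The second Erbb4 probe was made for NM_010154 at chr1:68086686-68086745 on the minus strand and stayed between 2.86 and 4.03 intensity units on all 6 arrays, not well above background on any. The only Erbb3 probe, made for NM_010153 at chr10:128006424-128006483 on the minus strand, was not well above background on any array either. The Erbb3 probe is printed because it is the only one for this receptor and gave no usable signal, and the stop codon that closes its frame is in capitals.
Erbb3 A_55_P2119897: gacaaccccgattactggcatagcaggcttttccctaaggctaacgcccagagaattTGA
For Erbb3 the intensity was 8.54, 3.18 and 4.32 in the sham hearts and 2.81, 3.90 and 4.04 in the tail-suspended hearts. Sham replicate 1 was the brightest of the 6. No fold change is given for these 2 probes, since their level is known only as a bound.

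**Figure D3:**
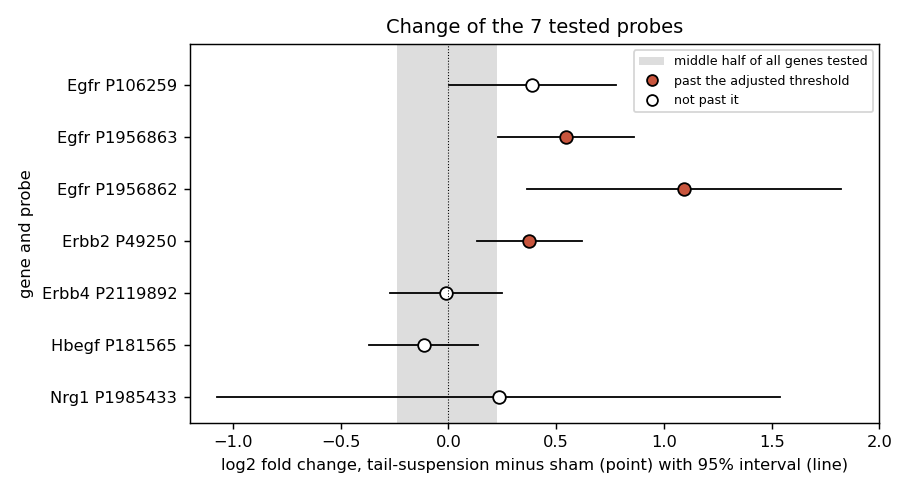
Log2 fold change, tail-suspension minus sham (horizontal axis), of the 7 tested probes (vertical axis) with 95% intervals from limma; filled points passed the adjusted threshold and the grey band runs from the lower to the upper quartile of all tested genes. The 2 Egfr probes annotated to NM_007912 and the Erbb2 probe passed, and the interval of Nrg1 runs from -1.07 to 1.54.

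Among the ligands, Nrg1, the neuregulin that binds Erbb3 and Erbb4, varied more between arrays than between groups. Its probe was made for NM_178591 and lies at chr8:32928500-32928559 on the minus strand of mm9. It is printed because it is the only probe for this ligand, and it ends on a stop codon in an open frame, in capitals.
Nrg1 A_55_P1985433: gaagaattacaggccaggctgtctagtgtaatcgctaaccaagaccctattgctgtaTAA
The intensity was 105, 444 and 226 in the sham hearts and 449, 222 and 266 in the tail-suspended hearts. Sham replicate 1 was the lowest, sham replicate 2 and tail-suspension replicate 1 were the highest, and the groups overlapped. Between the groups it differed by 0.23 (SE 0.55) on the log2 scale, with a 95% interval of -1.07 to 1.54 (limma, Benjamini-Hochberg adjusted p = 0.782). It turned to -0.31 without sham replicate 1 and to -0.11 without tail-suspension replicate 1, so no direction can be read for Nrg1 with these arrays.

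Nrg1 is known as a signal of nerves and endothelium, and Schwann cell markers also varied among these arrays. Sox10, a transcription factor of Schwann cells, had intensities of 109, 209 and 163 in the sham hearts and 178, 144 and 89.8 in the tail-suspended hearts. Sham replicate 1 was the lowest sham array and tail-suspension replicate 1 the highest tail-suspension array, as for Nrg1, whereas tail-suspension replicate 3 was lowest of its group for Sox10 and not for Nrg1. Of the 8 markers, 6 were tested, and 4 of these, Sox10 included, had this order of levels while 2, Prx included, did not. The order was taken from Nrg1 itself and its share among all tested genes was not counted, so no link can be read from these counts. Of the 6 tested markers, Prx was higher after tail-suspension and none was lower, beside 10.6% and 10.5% of all tested genes. Of the markers not tested, Foxd3 was well above background on 2 arrays and 1 marker on none. The mean level of the tested markers was -1.32 to -0.65 in sham and -1.53 to -0.70 in tail-suspended hearts. The part of nerve or Schwann cell RNA in the signal of Nrg1 was not tested.

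Hbegf, the heparin-binding ligand of Egfr and Erbb4 that is shed from the cell surface, did not differ beyond the spread of the arrays. Its probe, A_51_P181565, lies at chr18:36664738-36664797 on the minus strand of mm9 and gave 1477, 1447 and 1306 in the sham hearts and 1275, 1521 and 1755 in the tail-suspended hearts. The tail-suspension arrays spanned the sham arrays. The log2 fold change was -0.12 with a 95% interval of -0.37 to 0.14 (limma, Benjamini-Hochberg adjusted p = 0.463).

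Btc (betacellulin), which binds Egfr and Erbb4, lay at the edge of detection. Its probe, at chr5:91786948-91787007 on the minus strand, gave 17.9, 33.5 and 9.92 in the sham hearts and 16.2, 11.7 and 19.3 in the tail-suspended hearts. The signal was well above background for sham replicates 1 and 2 and tail-suspension replicate 1 only, so the gene was not tested. Areg (amphiregulin), Ereg (epiregulin) and Tgfa (transforming growth factor alpha), ligands of Egfr of which epiregulin also binds Erbb4, lay between 3.16 and 7.08 intensity units on all 6 arrays and were not well above background on any. The 10 Tgfa spots of an array had a coefficient of variation of 7.52% to 76.1%. No fold is given for these 4 genes.

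The wider pathway was read from 76 further genes, all on the array, of which 69 were tested. Of the 69, 8 were higher and 8 lower, which is 11.6% in each direction beside 10.6% and 10.5% of all tested genes, and their median log2 fold change was 0.03. Over the 5 lists together the share of calls was thus near that of all genes, while it differed from list to list. The count of lower genes fell to 2 without sham replicate 2, to 3 without sham replicate 3 or tail-suspension replicate 3, and to 5 without sham replicate 1 or tail-suspension replicate 2. Of 19 genes with several tested probes, all probes had the same sign for 12. For 3 genes, Bace2 and Hras among them, the brightest probe did not pass while another probe was lower, which for Hras differed by -0.81 beside -0.02 for the brightest (limma, Benjamini-Hochberg adjusted p = 0.0392 and 0.889).

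Other ligands of the family gave no call. Of 5, Egf, Nrg2 and Nrg4 were tested, with a median log2 fold change of -0.11, Epgn was well above background on 2 arrays and Nrg3 on none. Egf, the founding ligand of Egfr, had intensities of 311, 221 and 260 in the sham hearts and 229, 239 and 200 in the tail-suspended hearts. The groups overlapped in intensity but not in the scaled level, where every tail-suspension array was lower, and the log2 fold change of -0.45 (SE 0.15) was not past the threshold (limma, Benjamini-Hochberg adjusted p = 0.0830).

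The shedding list holds the enzymes that cut ligands from the cell surface, their cofactors Rhbdf1 and Rhbdf2 and the inhibitor Timp3. Of 12 tested, 2 enzymes, Adam17 and Adam10, were lower and the inhibitor was higher. That is 16.7% lower and 8.33% higher, beside 10.5% and 10.6% of all tested genes. The median log2 fold change over the list was -0.08. Adam17, the main sheddase of Tgfa, Areg, Ereg and Hbegf, was lower, at 69.1, 76.5 and 72.5 in the sham hearts and 42.9, 58.5 and 59.9 in the tail-suspended hearts. Every tail-suspension array was below every sham array, and the log2 fold change was -0.66 (SE 0.12, adjusted p = 0.0156, limma with Benjamini-Hochberg adjustment), with -0.60 by its second probe and -0.43 after normexp correction. The Adam17 call was lost without sham replicate 2 (limma, Benjamini-Hochberg adjusted p = 0.0639) and with no filter on dim probes (limma, Benjamini-Hochberg adjusted p = 0.056). It was also lost by the methods' t-test (Benjamini-Hochberg adjusted p = 0.051). Adam10, the main sheddase of Egf and Btc, was lower by a log2 fold change of -0.41 (SE 0.10, adjusted p = 0.0365), a call lost whichever of the 6 arrays was left out. Timp3, a matrix-bound inhibitor of Adam17 and Adam10, was higher, at 7108, 7972 and 8064 in the sham hearts and 15470, 16370 and 16060 in the tail-suspended hearts. The difference was 0.84 on the log2 scale (SE 0.10, limma, Benjamini-Hochberg adjusted p = 0.00476), and this call was lost only when the slide row was a block (adjusted p = 0.0574).

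Inhibitors of the receptors showed 1 call in each direction among 14 tested of 15, with a median log2 fold change of -0.04. That is 7.14% in each direction, beside 10.6% higher and 10.5% lower of all tested genes. Cblb, a ubiquitin ligase that marks receptors for breakdown, was higher by 0.61 (SE 0.097, limma, Benjamini-Hochberg adjusted p = 0.0108). Socs4, part of a ubiquitin ligase that targets Egfr, was lower by a log2 fold change of -0.38 (SE 0.099, adjusted p = 0.0416), again lost whichever array was left out. The signal transducers, from adaptors to kinases, gave 1 higher and 2 lower genes among 27 tested of 29, which is 3.70% and 7.41%, with a median of 0.04.

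Pik3r1, the regulatory subunit of PI3 kinase, had intensities of 570, 464 and 555 in the sham hearts and 1319, 1104 and 1548 in the tail-suspended hearts. The groups lay far apart, with a log2 fold change of 1.103 (SE 0.16, limma, Benjamini-Hochberg adjusted p = 0.00853). Stat5a, a transcription factor that receptor kinases activate, was lower by a log2 fold change of -0.71 (SE 0.10, adjusted p = 0.00813). The calls of Cblb, Pik3r1 and Stat5a were lost only when the slide row was a block, where the adjusted p was 0.130, 0.0775 and 0.0978.

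Genes that receptor signalling is known to induce were called as 5 higher and 3 lower among 13 tested of 15, which is 38.5% and 23.1% beside 10.6% and 10.5% of all tested genes, with a median log2 fold change of 0.22. Dusp4, a phosphatase that switches off MAP kinases in the nucleus, had intensities of 12.7, 19.0 and 21.1 in the sham hearts and 167, 94.2 and 115 in the tail-suspended hearts. One sham heart, replicate 1, did not have it well above background, and the other 5 hearts did. Its log2 fold change was 2.62 (SE 0.30, limma, Benjamini-Hochberg adjusted p = 0.0045), and 0.98 after normexp correction. Myc, a transcription factor of growth, had 42.1, 45.4 and 40.0 in the sham hearts and 184, 114 and 160 in the tail-suspended hearts. All tail-suspension arrays were above all sham arrays, with a log2 fold change of 1.60 (SE 0.20, adjusted p = 0.00588, limma with Benjamini-Hochberg adjustment), and 0.80 after normexp correction. Myc passed under all 20 alternatives. Dusp4 passed under 19 and was not tested where a probe had to be well above background on all 6 arrays. It met the filter through the tail-suspension group only. Its level in sham replicate 1 (-4.67) lay below the lowest level well above background on that array (-4.48), so the size of its change is uncertain.

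The third induced gene by size was Junb, a subunit of the transcription factor AP-1, with a log2 fold change of 1.11 (SE 0.27, adjusted p = 0.0355), which was 0.55 after normexp correction and 0.56 when the slide row was a block and passed under neither. Ccnd1, the cyclin that starts the cell cycle, was lower, at 3370, 3810 and 4238 in the sham hearts and 2610, 1671 and 2079 in the tail-suspended hearts. Its log2 fold change was -1.07 (SE 0.21, limma, Benjamini-Hochberg adjusted p = 0.0203). Egr1, an immediate early transcription factor, changed by -0.82 (SE 0.17, adjusted p = 0.0222) and Phlda1, a pleckstrin domain protein, by -0.45 (SE 0.12, adjusted p = 0.0404). With the slide row as a block these 3 stood at -0.66, -0.50 and -0.30, none past the threshold. Leaving out sham replicate 2, sham replicate 3 or tail-suspension replicate 3 took away the calls of all 4, sham replicate 1 those of Junb, Egr1 and Phlda1, and either other array that of Phlda1. The list thus held calls in both directions.

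**Figure D4:**
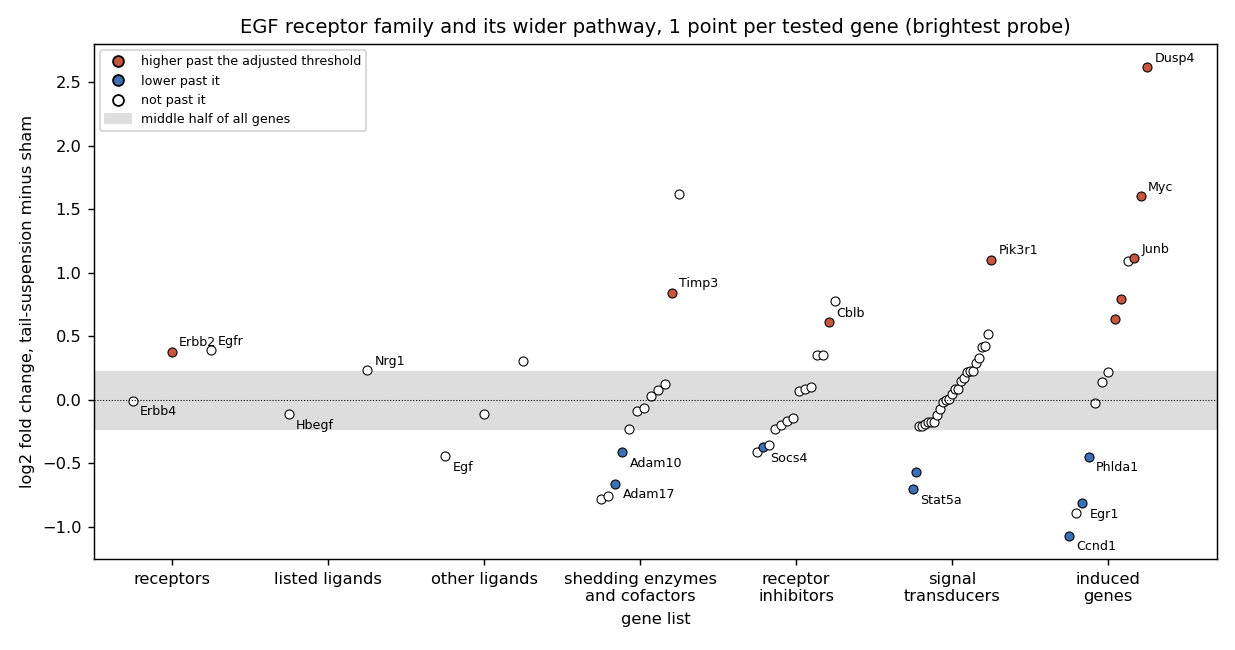
Log2 fold change, tail-suspension minus sham (vertical axis), of each tested gene of the receptors, the ligands and the 5 lists of the wider pathway (horizontal axis), each read from its brightest probe. Red points were higher and blue points lower past the adjusted threshold, and the grey band runs from the lower to the upper quartile of all tested genes; Dusp4 at 2.62 and Ccnd1 at -1.07 mark the ends of the induced genes.

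**Figure D5:**
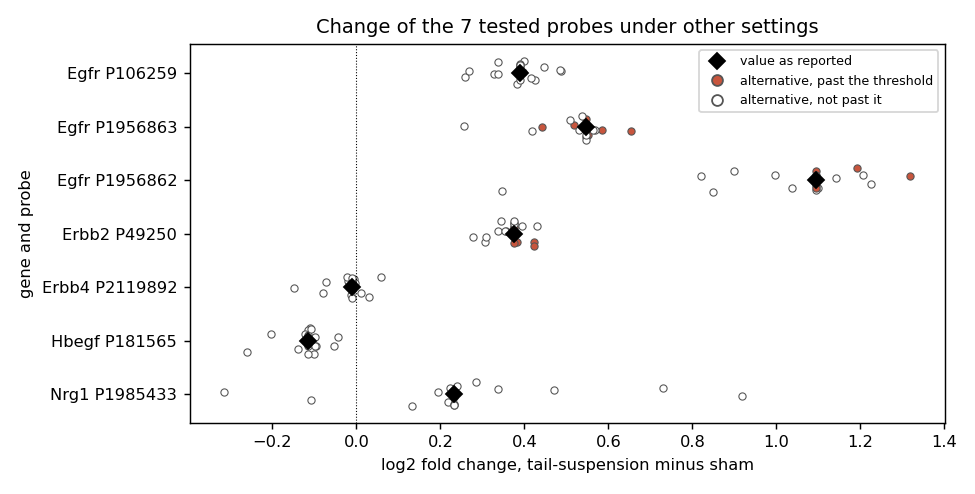
Log2 fold change, tail-suspension minus sham (horizontal axis), of the 7 tested probes (vertical axis) as reported (diamonds) and under 19 other ways of processing or choosing arrays (circles, filled where the threshold was passed). Erbb2 ran from 0.28 to 0.43 and the Egfr probe at the stop codon from 0.35 to 1.32, all above 0, and Nrg1 from -0.31 to 0.92.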

How the data were processed

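For every heart the authors deposited a 1-colour Agilent scanner file with the mean, background and processed (background-corrected) intensity of each spot. A deposited log2 table covers the same hearts, and its columns correlated above 0.999 with the matching scanner file. Per the submitters' processing notes, spots were extracted with Agilent Feature Extraction 10.7.1.1. The normalization behind the deposited log2 values is not given in the sources used here.

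In R 4.3.3, spots that were controls or flagged as outliers were dropped, each array's 75th percentile was subtracted from the log2 processed intensity, and repeated spots were averaged. Well above background means that 50% or more of a probe's spots were so flagged. Groups came from the sample titles, and 3 arrays per group were compared with limma 3.58.1 (lmFit, eBayes, without covariates). Benjamini-Hochberg adjustment was over all tested probes, with a threshold of 0.05. Adjusted p-values given without a method are from this fit. The limma fit and the t-test were also checked on simulated probe levels, while the scaling, the filter and the averaging of spots were not. Intervals are 95% intervals of limma. Each array is from 1 of 3 mice per group by the study's design text.

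The members and all gene lists were chosen with earlier results of these data known. Named are all 10 members with every probe, from each pathway list the 3 genes past the threshold with the largest change in each direction (or, where none passed, the gene with the largest change), for a member past the threshold the 2 genes most correlated with it, and marker genes by their lists. Bace2 and Hras were named after their values were seen. Some genes of the lists that the rule covers, and 1 probe sequence, are not reported here.

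The background step (normexp, offset 50), the scaling (quantile, the percentile over detected probes only, or the authors' log2 values) and the filter (none, or detected in all hearts) were varied. So were outlier spots (kept), the variance model (robust with a trend, or array weights), the test (the methods' t-test), blocks (replicate number, slide row) and the probe rule (mean of a gene's probes), and each array was left out in turn. Coordinates are those of the array annotation on mm9, and no genome was used. Genes carry the names given by the array annotation, except Hras, which the array names Hras1.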

Additional observations from a re-analysis of the deposited data

How the results depend on the processing

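Erbb2 was higher under all 20 alternatives (log2 fold change 0.28 to 0.43) and passed the threshold under 8 of them. The Egfr probes A_55_P1956863 and A_55_P1956862 passed under 9 and 6 of 19, always with the same direction. The brightest Egfr probe passed under none, but the mean of the 3 Egfr probes, 0.68, did (limma, Benjamini-Hochberg adjusted p = 0.0462), which made 2 genes higher. Against 1 gene and 3 probes of the family, 0 genes and 0 probes were higher under normexp correction, with no filter, by the methods' t-test with Benjamini-Hochberg adjustment, under the replicate block and the slide row block, and 0 genes and 1 probe with quantile normalization and with the authors' log2 values. With 1 array left out, these counts were 0 to 1 genes and 0 to 3 probes, and 0 under all but the fit without tail-suspension replicate 2. No member was lower in any of these fits.

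With 1 array left out, Nrg1 ran from -0.31 to 0.73 on the log2 scale, reversed without sham replicate 1 (-0.31) and without tail-suspension replicate 1 (-0.11). Erbb4 ran from -0.0788 to 0.0585, reversed without sham replicate 1 (0.0295), sham replicate 3 (0.0109) and tail-suspension replicate 1 (0.0585). Neither passed the threshold in any of these. The cause was not tested.

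In the wider pathway, 8 higher genes became 14 by the methods' t-test at their unadjusted threshold and 2 with the slide row as a block (6 to 10 with 1 array left out). The 8 lower genes became 2 with no filter, 2 by the methods' t-test with Benjamini-Hochberg adjustment and 1 with the row as a block (2 to 7 with 1 array left out). Of all probes, 3023 were higher and 2683 lower. These were 1041 and 790 with no filter, 1532 and 1248 by the methods' t-test with Benjamini-Hochberg adjustment, 4810 and 4696 at their unadjusted threshold, 1714 and 1403 with the replicate block, 320 and 177 with the row as a block, and 1008 to 2885 and 749 to 2701 with 1 array left out. Array weights gave 4239 and 4092.

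No label states that the replicate numbers pair the mice, and the arrays were compared as unpaired. Same-numbered arrays of the 2 groups had deviations from their group means correlated at -0.020, -0.018 and 0.050. Other pairs ran from -0.081 to 0.10. With 3 arrays per group these values cannot decide whether the mice were paired. The slide and the scan could not be used as blocks, since all arrays share them. Signal over background limits Btc, Erbb3, Areg, Ereg, Tgfa and the second Erbb4 probe, for which only bounds are known.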
